A study of Mus musculus with 18 samples.

Results

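The comparison set myotubes given an siRNA against dystrophin beside myotubes given an siRNA against GL2, array by array of the same number, which gives 7 pairs. Members were the genes whose detection p-value was under 0.05 on at least 4 of the 18 arrays of the series, so that a gene seen with only 1 of the siRNAs could enter. Of 46632 probes, 19437 met this rule, and those with a symbol in the array annotation covered 10499 genes. The 14 arrays used are 7 per siRNA, and the 4 arrays of untreated cells entered only the detection count. GL2 is a luciferase of the firefly, which has no counterpart in the mouse. The cells were primary cultures from limb muscles of C57BL/10 mice aged 3 to 5 days, siRNA was given on day 2 and again on day 4, and RNA was taken on day 6, after 48 h of differentiation. There was 1 siRNA per target, so the loss of dystrophin and any other effect of either siRNA cannot be told apart. Because no untreated array was used, a difference does not show with which siRNA a gene moved. Falls and rises below mean only lower and higher levels with dystrophin siRNA than with GL2 siRNA, not movement from untreated cells. For *Pvalb*, *Rpl3l*, *Ky* and *Myoz1*, among others, the paper reports changes against untreated cells in opposite directions with dystrophin siRNA and with GL2 siRNA.

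Myotubes are the multinucleated cells that form when myoblasts fuse, and in culture they express a mixture of embryonic, slow and fast contractile proteins. Dystrophin links the actin cytoskeleton beneath the muscle membrane to a complex of dystroglycan, sarcoglycans and syntrophins, and through it to the extracellular matrix. Fibre types differ in their isoforms of myosin, troponin and calcium pump and in the fuels they burn, and calcineurin signalling is known to favour the slow programme. The level of a probe is given here as log2 of its normalized bead intensity. A change is the mean of the 7 differences within pairs, dystrophin siRNA minus GL2 siRNA on the log2 scale, with its standard error (SE) and the p-value of limma after Benjamini-Hochberg adjustment over all probes. A gene passed at an adjusted p under 0.05 and is represented by its brightest detected probe.

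Array numbers carried shared variation. After removal of the group means, arrays of the same number correlated across siRNAs at 0.35 to 0.51, and 6 of the 7 dystrophin siRNA arrays had their own number as best partner. Numbers 2 and 3, 4 and 5, and 6 and 7 also resembled each other across siRNAs, at 0.34 to 0.41, whereas all other combinations lay between -0.38 and 0.15. The labels state 4 occasions of preparation and do not name the arrays of each. Cultures of an occasion came from the same cells, so p-values measure the spread between these cultures. Between 17551 and 18530 probes were detected per array, at median intensities of 92.6 to 110.9, and precision is set by how many arrays there were. Of 6 myotube markers (*Acta1*, *Ckm*, *Myog*, *Mylpf*, *Des* and *Tnnt3*) all but *Mylpf* had a detected named probe. Their mean level was 12.49 to 12.77 with dystrophin siRNA against 12.76 to 12.90 with GL2 siRNA. It was lower with dystrophin siRNA in 7 of 7 pairs, with a mean difference of -0.20. *Ckm*, whose fall is given below with the energy genes, is part of this mean, which does not show how many of the markers fell.

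*Dmd*, the gene of dystrophin and the target of the siRNA, was lower in every pair. Its lowest, median and highest levels were 8.05, 8.30 and 8.51 with dystrophin siRNA and 10.01, 10.35 and 10.50 with GL2 siRNA. The ranges did not overlap. The change was -2.0 (SE 0.10, adjusted p = 1.0e-05), which left 25.0% of the GL2 siRNA signal on average and 21.1% to 31.3% in single pairs. An exact two-sided permutation test over the 128 sign changes of the 7 pairs gave p = 0.0156, the smallest value it can give. That test treats the 7 pairs as independent, although the cultures came from 4 occasions of preparation. A second, dimmer *Dmd* probe stood at -0.58 (SE 0.15, adjusted p = 0.07).

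Most other members of the dystrophin complex gave no call. Of 12 detected genes of that list, *Dmd* and *Cav3*, which encodes the caveolin of muscle, were lower and 0 were higher by limma (before adjustment, at p under 0.05, 3 were lower and 1 higher), with a median change of -0.09. *Cav3* stood at -0.38 (SE 0.08, adjusted p = 0.033), and it did not pass without any 1 of pairs 2 to 7, where its adjusted p reached 0.098. *Dag1*, the dystroglycan that binds dystrophin, was bright with both siRNAs, at 13.19 ± 0.09 (SD, n = 7) with dystrophin siRNA and 13.23 ± 0.09 (SD, n = 7) with GL2 siRNA. Its change was -0.05 (SE 0.07, adjusted p = 0.81). *Utrn*, the dystrophin homologue utrophin, was at 0.18 (SE 0.09, adjusted p = 0.35). In 6 of the 12 genes the 95% interval of the change lay within 0.32 of 0.

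Of the 10499 detected genes, 1119 passed the test, which is 10.7%. They divided into 535 genes higher with dystrophin siRNA (5.10% of the genes tested) and 584 lower (5.56%). Of the 19437 probes, 1925 passed (9.90%), 910 higher and 1015 lower. That count was 1163 without pair 5, 1224 without pair 4, and 1259, 1266 and 1269 without pair 6, 2 or 7. Most changes were small, with a median size of 0.54 among the called genes and 0.14 among all. Changes over 2-fold were found in 58 higher and 108 lower genes, and changes over 4-fold in 8 and 29, counted on measured levels, also where an siRNA was at background. All 7 pairs had the same sign in 1082 of the 1119 called genes and in 2561 of all 10499, and the ranges of the siRNAs did not overlap in 483 called genes and in 617 of all. Under other background corrections, filters on detection or a variance trend between 2509 and 2667 genes passed, so the counts of lists given here hold for this fit. They are to be read beside the 5.10% higher and 5.56% lower over all genes.

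**Figure D1:**
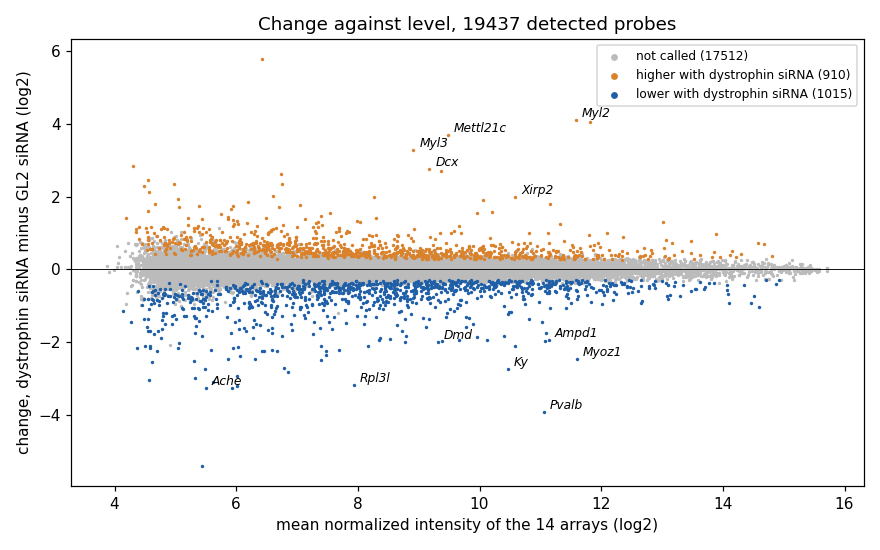
Each point is 1 of the 19437 detected probes, with its mean log2 intensity on the x axis and its log2 change, dystrophin siRNA minus GL2 siRNA, on the y axis. Orange points (910) were higher and blue points (1015) lower at an adjusted p under 0.05, and *Pvalb* and *Myl2* lie at -3.92 and 4.12.

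Genes of mature fast muscle and of its synapse were among those with large falls. *Pvalb* encodes parvalbumin, the calcium buffer of fast fibres. Its lowest, median and highest levels were 8.76, 8.99 and 10.00 with dystrophin siRNA and 12.63, 13.03 and 13.26 with GL2 siRNA. The ranges lay far apart, with dystrophin siRNA array 1 above the other 6, and the change was -3.92 (SE 0.11, adjusted p = 1.8e-06), a 15.2-fold difference. *Rpl3l*, a paralogue of a ribosomal protein that is used in striated muscle, had levels of 5.73, 6.37 and 6.75 against 9.06, 9.64 and 9.73 (change -3.17, SE 0.10, adjusted p = 2.0e-06). *Ky*, a Z-disc protein that muscle needs to grow, had levels of 8.85, 9.05 and 9.46 against 11.45, 11.77 and 12.21 (change -2.74, SE 0.11, adjusted p = 4.6e-06). For both genes every dystrophin siRNA array lay below every GL2 siRNA array.

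Several genes were detected on all 7 GL2 siRNA arrays and on none with dystrophin siRNA, so their falls are given as bounds, which set the mean of the brighter siRNA against the lowest level that counts as detected on the arrays of the dimmer one. *Ache*, the acetylcholinesterase of the synapse, was at least 4.36-fold lower (adjusted p = 4.8e-05), with measured means of 3.86 and 7.13. *Phkg1*, the catalytic subunit of the kinase that switches on glycogen phosphorylase, was at least 4.48-fold lower (adjusted p = 6.2e-05, means 4.07 and 7.17). *Mlf1* (myeloid leukaemia factor), *Tac4* (a tachykinin precursor) and *Lrrc30* (a leucine-rich repeat gene) were at least 3.59-fold, 3.54-fold and 2.12-fold lower (adjusted p = 7.6e-05, 1.7e-05 and 1.0e-05). *Chrne*, the subunit of the acetylcholine receptor at adult synapses, and *Dupd1*, a dual-specificity phosphatase of muscle, were each detected on 1 dystrophin siRNA array, and no size is given for their falls because the other 6 were not above background. *Chrne* was at 3.57, 4.53 and 5.08 against 6.93, 7.78 and 7.94 (adjusted p = 1.1e-04). *Dupd1* was at 3.86, 4.20 and 5.02 against 6.89, 7.40 and 8.34 (adjusted p = 1.1e-04). *Cd300c*, a receptor of the immunoglobulin family known from leukocytes (change -2.81, SE 0.11, adjusted p = 4.6e-06), and *Thrsp*, a regulator of lipid synthesis (change -2.72, SE 0.19, adjusted p = 8.7e-05), were each detected on 5 dystrophin siRNA arrays. The genes of these paragraphs were picked by the measured difference, which has no defined order where an siRNA is at background, and *Myoz1*, *Ckmt2* and *Clip4*, which follow with their groups, were detected with both siRNAs and fell further than the bound of *Lrrc30*. In all, 30 of the 584 lower genes were detected on no dystrophin siRNA array and 15 of the 535 higher genes on no GL2 siRNA array. Genes without a call were not counted in this way, so it is not known whether these counts are unusual.

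Contractile proteins of slow and cardiac muscle were among the genes with large rises. *Myl2* encodes the regulatory myosin light chain of these muscles. Its levels were 12.94, 13.71 and 13.94 with dystrophin siRNA and 8.36, 8.99 and 11.07 with GL2 siRNA, a change of 4.12 (SE 0.31, adjusted p = 1.3e-04) or 17.4-fold. *Myl3*, an essential light chain of the same muscles, was at 9.88, 10.55 and 11.17 against 6.74, 7.32 and 7.86 (change 3.29, SE 0.21, adjusted p = 5.1e-05). For neither gene did the ranges overlap. *Mettl21c*, a lysine methyltransferase of muscle, had a change of 3.69 (SE 0.25, adjusted p = 7.7e-05), *Ankrd2*, an ankyrin repeat protein of stretched and slow muscle, one of 2.72 (SE 0.20, adjusted p = 1.2e-04), and *Xirp2*, which binds actin, one of 1.98 (SE 0.13, adjusted p = 6.9e-05). *Myh7*, which encodes the heavy chain of slow and cardiac myosin, has a probe that only the supplementary lists of the study name. Those lists hold only probes that changed in the study, so probes named from them stand outside every count given here. The *Myh7* probe was at 13.52, 13.92 and 14.06 against 9.45, 9.61 and 10.33, a change of 4.04 (SE 0.17, adjusted p = 4.7e-06).

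Most of the other large rises lay outside the contractile apparatus. *Dcx*, a microtubule-binding protein known from migrating neurons, was at 9.84, 10.77 and 11.11 against 7.20, 7.82 and 8.19 (change 2.75, SE 0.12, adjusted p = 4.7e-06). Its dimmer probe was detected on all 7 dystrophin siRNA arrays and on 0 GL2 siRNA arrays and was at least 19.7-fold higher (adjusted p = 3.0e-05, means 9.31 and 3.53). *Csrnp3*, a nuclear protein, the keratin gene *Krt80* and the phosphatase *Dusp26* were also detected on no GL2 siRNA array and on 5, 6 and 5 dystrophin siRNA arrays, and they were at least 1.64-fold, 1.71-fold and 1.46-fold higher (adjusted p = 0.002, 0.002 and 0.0083). *Lce1f*, a gene of the cornified envelope of skin, had a change of 2.34 (SE 0.18, adjusted p = 1.6e-04), and *AW551984* changes of 1.90 (SE 0.11, adjusted p = 3.4e-05) and, on its dimmer probe, 1.04 (SE 0.09, adjusted p = 3.0e-04). In the plot of differences by pair, the 7 pairs of each gene can be read beside each other.

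**Figure D2:**
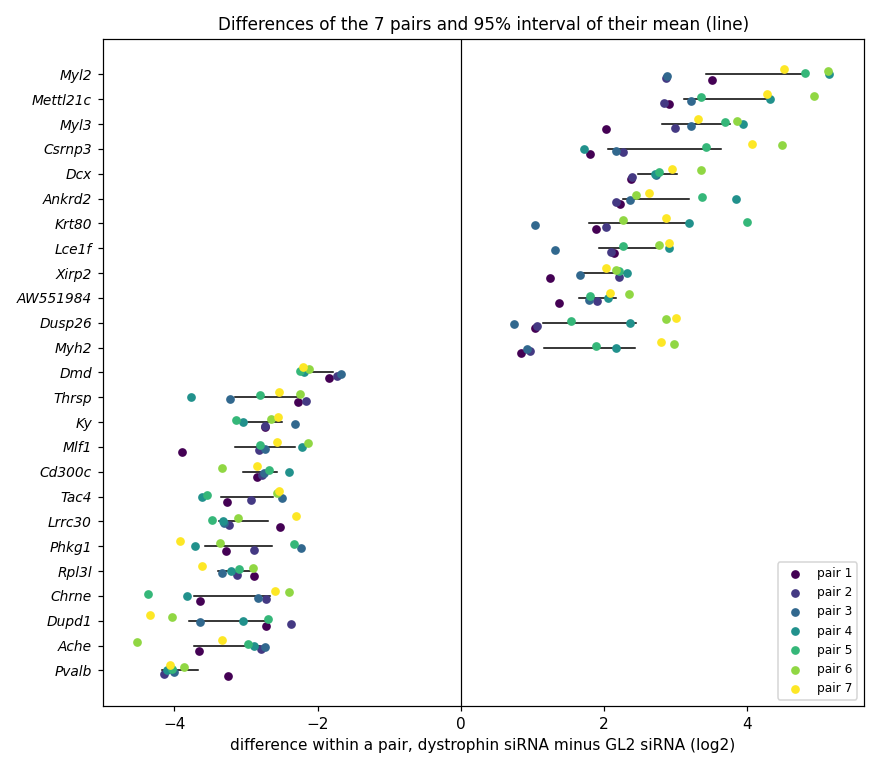
Each point is the difference within 1 pair, dystrophin siRNA minus GL2 siRNA on the log2 scale (x axis), for *Dmd* and 12 lower and 12 higher genes picked by the measured difference, and the line is the 95% interval of the mean. Differences of genes detected on 0 or 1 arrays of an siRNA (*Ache*, *Phkg1*, *Lrrc30*, *Tac4*, *Mlf1*, *Chrne*, *Dupd1*, *Csrnp3*, *Krt80*, *Dusp26*) include intensities at background, so their place in the order is not defined, and the pairs of *Myh2* range from 0.84 to 2.97.

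The promoters of 3 genes with large falls and of 1 with a large rise are shown because they stand for both directions of the comparison. Each is the first window of 300 bases around a start site that RefSeq lists on build GRCm38.p6, 5′ to 3′ on the strand of the gene. Capitals mark matches on either strand to CANNTG (the E-box, of which CAGCTG is 1 form), to the core bound by MEF2 (CTA, any 4 bases, TAG) and to TATAAA. The windows are chr15:78206351-78206650 on the minus strand for *Pvalb*, chr5:137288004-137288303 on the plus strand for *Ache*, chr14:21714527-21714826 on the minus strand for *Dupd1* and chr5:122092474-122092773 on the plus strand for *Myl2*.
Pvalb: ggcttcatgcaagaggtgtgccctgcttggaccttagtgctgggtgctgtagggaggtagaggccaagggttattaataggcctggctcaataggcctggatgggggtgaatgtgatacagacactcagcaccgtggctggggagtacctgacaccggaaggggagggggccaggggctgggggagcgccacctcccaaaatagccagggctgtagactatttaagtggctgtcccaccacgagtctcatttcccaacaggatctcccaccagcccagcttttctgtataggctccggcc
Ache: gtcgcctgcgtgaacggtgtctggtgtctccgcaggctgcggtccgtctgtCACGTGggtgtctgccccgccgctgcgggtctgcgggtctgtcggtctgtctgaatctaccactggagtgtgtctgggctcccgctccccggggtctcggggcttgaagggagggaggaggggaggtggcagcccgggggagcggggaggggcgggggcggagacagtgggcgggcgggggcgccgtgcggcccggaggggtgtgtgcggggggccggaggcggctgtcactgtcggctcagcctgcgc
Dupd1: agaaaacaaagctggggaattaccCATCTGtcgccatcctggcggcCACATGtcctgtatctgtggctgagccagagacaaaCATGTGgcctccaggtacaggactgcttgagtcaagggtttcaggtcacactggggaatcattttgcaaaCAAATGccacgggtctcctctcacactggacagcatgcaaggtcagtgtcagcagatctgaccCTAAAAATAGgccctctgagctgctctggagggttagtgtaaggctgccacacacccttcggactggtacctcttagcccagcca
Myl2: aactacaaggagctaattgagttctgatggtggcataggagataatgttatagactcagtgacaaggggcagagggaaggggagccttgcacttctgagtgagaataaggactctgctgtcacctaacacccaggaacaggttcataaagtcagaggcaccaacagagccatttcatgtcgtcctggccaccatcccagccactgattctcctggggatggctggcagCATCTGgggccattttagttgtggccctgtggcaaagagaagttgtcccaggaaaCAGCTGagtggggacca
The *Dupd1* window held 4 E-boxes and 1 MEF2 core, the *Myl2* window 2 E-boxes of which 1 is CAGCTG, the *Ache* window 1 E-box, and the *Pvalb* window none of these letters. Among genes with a listed window, CANNTG was present in 71.5% of the 477 lower genes, 61.2% of the 420 higher genes and 63.8% of all 8496 genes. The shares were 20.5%, 17.6% and 15.3% for CAGCTG, 5.2%, 3.1% and 3.3% for the MEF2 core and 11.3%, 7.9% and 8.5% for TATAAA, in the same order. A match is a run of letters, and no test was made of these shares.

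Fast-fibre genes were mostly lower, and slow-fibre genes divided. Of 15 detected genes of the fast-fibre list, 8 were lower and 2 higher, with a median change of -0.52 against 0.01 over all genes. With any 1 pair left out, 1 gene was higher. *Myoz1*, the calsarcin of fast fibres that binds calcineurin, was at 9.84, 10.37 and 10.95 against 12.70, 12.83 and 13.02, without overlap, and fell by 2.46 (SE 0.11, adjusted p = 4.7e-06). *Tmod4*, which caps the pointed end of actin filaments, fell by 1.75 (SE 0.08, adjusted p = 1.0e-05). *Myl1*, the brightest gene of the list and an essential light chain of fast myosin, was at 15.46 ± 0.06 (SD, n = 7) and 15.45 ± 0.06 (SD, n = 7), a change of 0.01 (SE 0.07, adjusted p = 0.98). Its dimmer probe fell by 0.54 (SE 0.09, adjusted p = 0.0086). Of 12 detected slow-fibre genes, 5 were higher and 1 lower, with a median change of 0.08. Besides *Myl2* and *Myl3* the higher genes were *Tpm3* (a slow tropomyosin, 0.89, with 5 other probes between 0.18 and 1.01 of which 1 passed), *Csrp3* (muscle LIM protein, 0.78) and *Myoz2*, the calsarcin of slow and cardiac muscle. *Myoz2* was at 14.24, 14.35 and 14.49 against 13.21, 13.35 and 13.65 (change 0.97, SE 0.07, adjusted p = 1.4e-04), and its dimmer probe had a change of 2.03 (SE 0.16, adjusted p = 1.5e-04). *Sln*, sarcolipin, an inhibitor of the calcium pump, was found on 6 GL2 siRNA arrays and on 0 with dystrophin siRNA, so that it was lower by a factor of at least 1.35 (adjusted p = 0.0052). *Tnnc1*, the slow and cardiac troponin C, was at 0.01 (SE 0.07, adjusted p = 0.96).

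The myosin heavy chain genes moved in both directions. *Myh2*, the heavy chain of fast oxidative fibres, was at 11.33, 12.25 and 12.49 against 8.47, 10.51 and 11.53, with overlap, and its change was 1.79 (SE 0.28, adjusted p = 0.0073). Within pairs the difference was 0.84, 0.96 and 0.93 in pairs 1 to 3, 2.16 and 1.89 in pairs 4 and 5, and 2.97 and 2.80 in pairs 6 and 7. Levels of *Myh2* varied more with GL2 siRNA (SD 1.33) than with dystrophin siRNA (SD 0.47), and the same SDs of *Myl2* were 1.20 and 0.34. *Myh1*, the heavy chain of fast intermediate fibres, fell by 1.64 (SE 0.11, adjusted p = 7.2e-05). *Myh4*, that of the fastest fibres, has probes that differed. The brightest was at -0.52 (SE 0.13, adjusted p = 0.059), whereas another was detected on 7 of 7 GL2 siRNA arrays and 0 of 7 dystrophin siRNA arrays and was at least 8.74-fold lower (adjusted p = 1.0e-05, means 2.74 and 8.13). The perinatal *Myh8* was at 0.08 (SE 0.07, adjusted p = 0.63), and a dimmer probe of it, detected on 1 dystrophin siRNA and 5 GL2 siRNA arrays, was lower (adjusted p = 0.0021). These genes are close in sequence, and whether a probe reads more than 1 of them was not tested. In bulk RNA, fewer cells of a type and less RNA per cell cannot be told apart.

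**Figure D3:**
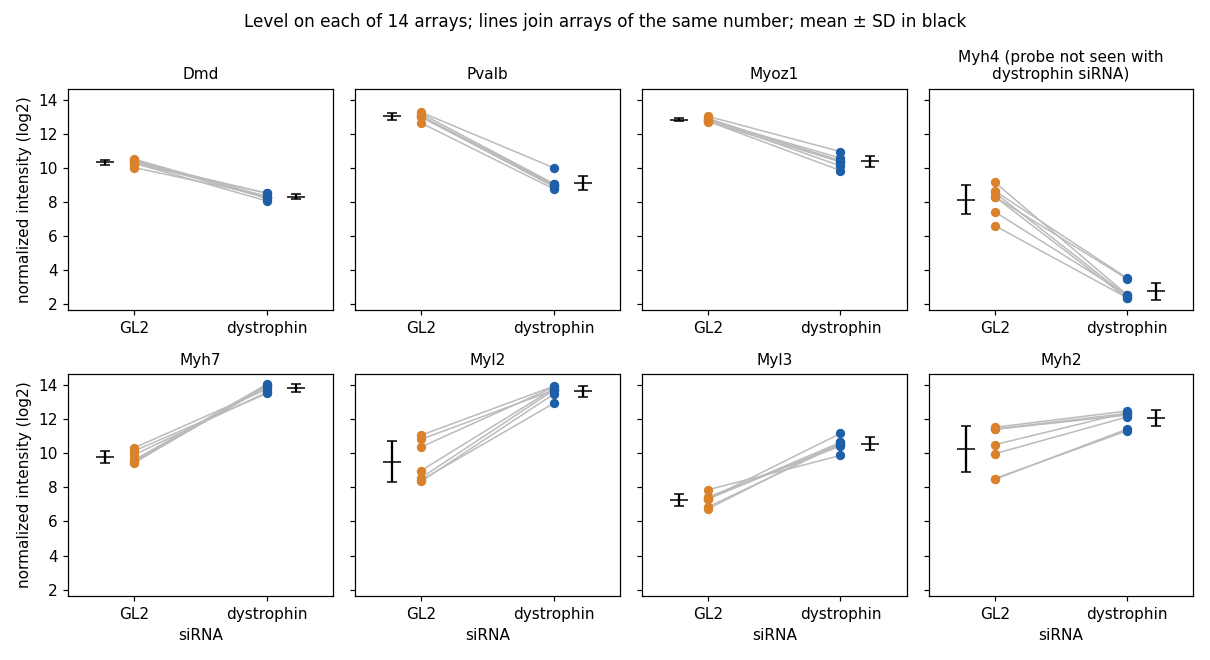
Each panel gives the normalized log2 intensity (y axis) of 1 gene on 7 GL2 siRNA and 7 dystrophin siRNA arrays, with lines joining arrays of the same number and the mean ± SD in black. *Dmd*, *Pvalb*, *Myoz1* and the *Myh4* probe detected only with GL2 siRNA lie lower with dystrophin siRNA, and *Myh7*, *Myl2*, *Myl3* and *Myh2* lie higher in all 7 pairs.

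Embryonic muscle genes had 1 call in 9, near the 10.7% called over all genes. *Chrng*, the fetal subunit of the acetylcholine receptor, stood at -0.44 (SE 0.09, adjusted p = 0.028), a call lost when pair 2, 4, 5, 6 or 7 was left out (highest adjusted p 0.087). Its dimmer probe fell by 1.32 (SE 0.13, adjusted p = 5.5e-04) in 7 of 7 pairs, without overlap. *Actc1*, the cardiac actin of early muscle, was at 0.13 (SE 0.07, adjusted p = 0.42). Among 35 genes of the sarcomere scaffold and its upkeep, 13 were lower and 5 higher, with a median change of -0.22. Besides *Ky* the lower genes included *Igfn1*, which has immunoglobulin domains and lies at the Z-disc, at 7.95, 8.85 and 9.09 against 10.16, 10.62 and 10.93 (change -1.93, SE 0.11, adjusted p = 2.7e-05). *Ankrd2* and *Xirp2* were among the higher ones. *Actn2*, an actinin of the Z-disc, was at 0.08 (SE 0.07, adjusted p = 0.65).

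At the triad, where the membrane signal releases calcium from the sarcoplasmic reticulum, 9 of 19 detected genes were lower and 0 higher by limma (before adjustment, at p under 0.05, 12 were lower and 1 higher). The median change was -0.28, and over all genes 5.56% were lower. The count of lower triad genes was 7 without pair 1, 2, 5, 6 or 7. *Casq1*, the calcium store protein of fast fibres, was at 11.51, 11.75 and 12.05 against 12.32, 12.65 and 12.72 (change -0.84, SE 0.10, adjusted p = 0.0014). *Ryr1*, the release channel, had a change of -0.50 (SE 0.07, adjusted p = 0.0041), and 3 more probes of it had changes of -0.52 to -0.43. *Hrc*, a calcium-binding protein of the reticulum lumen, fell by 0.55 (SE 0.07, adjusted p = 0.002). For none of these genes did the ranges overlap. *Atp2a1*, the calcium pump of fast fibres, was at -0.21 (SE 0.09, adjusted p = 0.29). Outside these counts, which use the brightest probe of each gene, a dimmer probe of *Cacna2d1*, a calcium channel subunit, was higher. It stood at 0.77 (SE 0.09, adjusted p = 0.0012), and another dimmer probe of that gene at 0.22 (adjusted p = 0.19).

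Of 15 detected genes of the neuromuscular junction, 7 were lower and 0 higher by limma (before adjustment, at p under 0.05, 7 were lower and 1 higher). Over all genes 5.56% were lower. The count of lower junction genes was 5 without pair 2, 4, 5, 6 or 7. Next to *Ache* and *Chrne*, the receptor subunit *Chrna1* was detected on 1 of 7 dystrophin siRNA arrays, at 4.17, 4.83 and 4.98 against 5.81, 6.07 and 6.37 (adjusted p = 1.1e-04), too close to background for a size. *Etv5*, a transcription factor of synaptic nuclei, fell by 0.98 (SE 0.09, adjusted p = 3.6e-04). Of the proteins that cluster the receptor, *Rapsn* was at -0.12 (SE 0.07, adjusted p = 0.42) and *Dok7* at 0.03 (SE 0.11, adjusted p = 0.93). Among 17 ion channels and pumps, 6 were lower and 3 higher, against 5.56% lower and 5.10% higher over all genes. The sodium pump subunit *Atp1b2* fell by 1.91 (SE 0.09, adjusted p = 7.0e-06), the potassium channel *Kcnc1* fell by 1.51 (SE 0.12, adjusted p = 1.6e-04) and the GABA receptor subunit *Gabrd* fell by 2.24 (SE 0.24, adjusted p = 9.7e-04). *Scn3b*, a sodium channel subunit, had a change of 1.17 (SE 0.11, adjusted p = 3.6e-04), and its dimmer probe, detected on 6 dystrophin siRNA and 0 GL2 siRNA arrays, was at least 1.54-fold higher (adjusted p = 1.2e-04).

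Genes that supply quick energy were lower where they passed. Of 26 detected genes of glycogen and glucose breakdown, 12 were lower and 0 higher by limma (before adjustment, at p under 0.05, 18 were lower and 1 higher). The median change was -0.27, and over all genes 5.56% were lower. The count of lower genes in this list was 9 without pair 6 or 7. *Gpd1*, glycerol-3-phosphate dehydrogenase, was at 9.58, 9.82 and 11.09 against 11.81, 11.99 and 12.46 (change -1.97, SE 0.14, adjusted p = 8.7e-05). *Pygm*, the muscle glycogen phosphorylase, fell by 1.18 (SE 0.11, adjusted p = 3.4e-04), and *Eno3*, the muscle enolase, fell by 1.02 (SE 0.08, adjusted p = 1.4e-04), without overlap in either. *Gapdh*, a bright enzyme of glycolysis often taken as a reference, was at 0.05 (SE 0.07, adjusted p = 0.8). Of 10 phosphagen and purine cycle genes, 5 were lower and 0 higher (before adjustment, at p under 0.05, 6 were lower and 2 higher), against 5.56% lower and 5.10% higher over all genes. *Ckmt2*, the creatine kinase of muscle mitochondria, fell by 2.09 (SE 0.10, adjusted p = 1.0e-05), and *Ckm*, its cytosolic counterpart, had a change of -0.93 (SE 0.08, adjusted p = 2.4e-04). *Ampd1*, the muscle AMP deaminase, was at 10.02, 10.14 and 10.41 against 11.96, 12.11 and 12.30, without overlap (change -1.95, SE 0.08, adjusted p = 4.6e-06). *Ckb*, the brain form of creatine kinase, was at 0.22 (SE 0.08, adjusted p = 0.2).

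**Figure D4:**
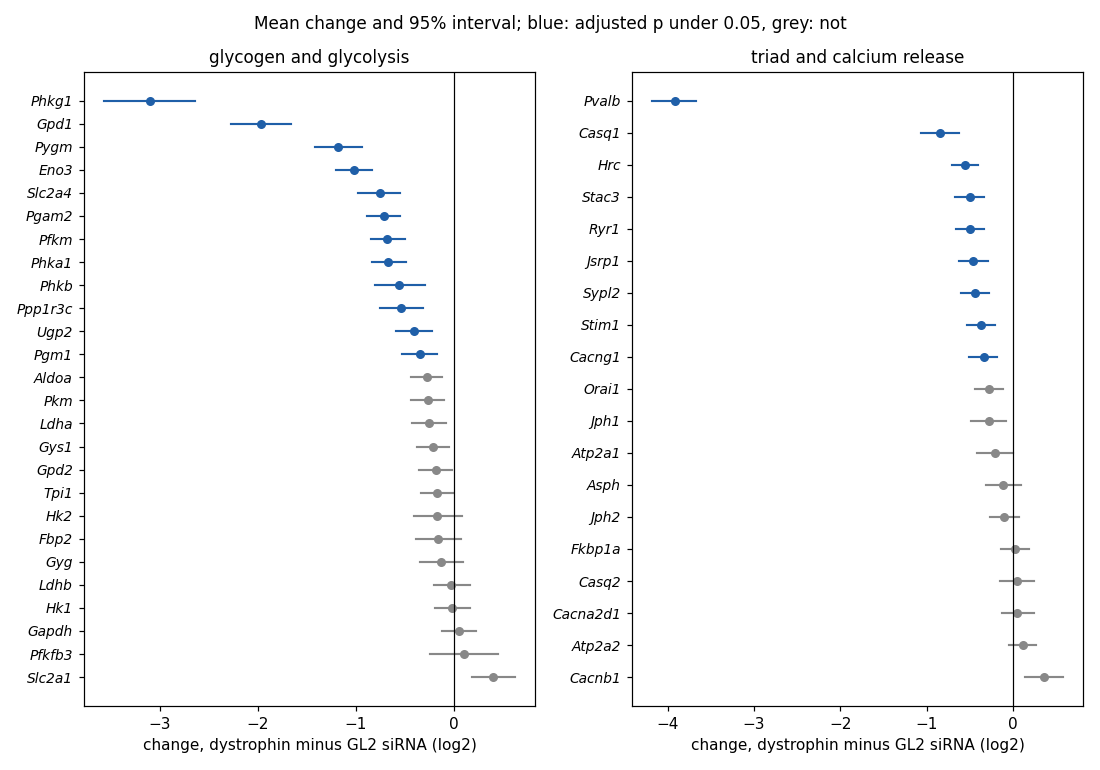
Points give the mean log2 change over 7 pairs and lines its 95% interval (x axis) for the detected genes of glycogen and glucose breakdown (26 genes) and of the triad (19 genes). Blue genes passed at an adjusted p under 0.05, 12 and 9 of them, and all of these lie below 0. For *Phkg1*, not detected with dystrophin siRNA, only a bound holds.

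Of 63 detected genes of oxidative phosphorylation, 4 were lower and 0 higher by limma (before adjustment, at p under 0.05, 19 were lower and 2 higher), a share of 6.35% lower against 5.56% over all genes, and the median change was -0.12. This count depended on the processing, with 17, 19, 11, 17 and 23 genes lower under normexp, without background correction, with probes filtered on detection (on 4 or on all 14 arrays) and with a variance trend. The 4 were *Cox7a1*, *Cox8b*, *Cox6a2* and *Atp5k*, of which the first 3 are forms of cytochrome oxidase subunits used in striated muscle. *Cox7a1* fell by 0.73 (SE 0.10, adjusted p = 0.0028) and *Cox8b* fell by 0.47 (SE 0.08, adjusted p = 0.011). *Cox6a2* (-0.30) did not pass without any 1 of the 7 pairs and *Atp5k* (-0.37) without any 1 but pair 6 (highest adjusted p 0.11 and 0.094), the second *Atp5k* probe was at -0.31, and the count was 2 without pair 1, 2, 4, 5 or 7. In 33 of the 63 genes the 95% interval lay within 0.32 of 0. Of 22 genes of fatty acid use, 6 were lower and 1 higher. *Ppargc1a*, the coactivator of mitochondrial genes, fell by 0.91 (SE 0.13, adjusted p = 0.0053), *Mb*, the oxygen store myoglobin, fell by 0.88 (SE 0.07, adjusted p = 1.8e-04), and *Pdk4*, which restrains glucose oxidation, fell by 0.82 (SE 0.09, adjusted p = 8.0e-04). *Fabp3*, a fatty acid carrier of slow and cardiac muscle, had a change of 0.47 (SE 0.08, adjusted p = 0.013). Of 24 genes of cholesterol and fatty acid synthesis, *Thrsp* and *Lpin1* (change -0.73, SE 0.08, adjusted p = 8.4e-04) were lower and 0 were higher (before adjustment, at p under 0.05, 6 were lower and 2 higher).

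Regulators moved in both directions. Of 22 myogenic transcription factors, 3 were higher and 3 lower, with 1 lower without pair 6. *Prox1*, a homeobox factor known from slow muscle, was at 7.85, 8.0 and 9.12 against 6.35, 6.60 and 7.66 (change 1.55, SE 0.11, adjusted p = 1.1e-04). *Tbx15*, a factor of glycolytic fibres, fell by 0.64 (SE 0.11, adjusted p = 0.012). *Myod1*, a factor that sets the muscle lineage, was at 0.16 (SE 0.10, adjusted p = 0.49), and the bright *Mef2c*, which acts with it, at 0.19 (SE 0.07, adjusted p = 0.16). Of 22 genes of calcineurin and calmodulin kinases, 2 were higher and 5 lower, with 3 lower without pair 2, 4, 5 or 6. *Rcan1*, a feedback inhibitor and target of calcineurin, had a change of 1.26 (SE 0.15, adjusted p = 0.0018), and its dimmer probe one of 2.62 (SE 0.33, adjusted p = 0.0022). *Camk2b*, a calmodulin-dependent kinase, fell by 0.61 (SE 0.08, adjusted p = 0.0033).

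Among 26 MAP kinases and phosphatases, 5 were higher and 5 lower, and the count of higher genes was 2 without pair 2, 4, 5, 6 or 7 and 3 without pair 3. *Dusp8*, a phosphatase of stress kinases, had a change of 1.11 (SE 0.14, adjusted p = 0.0023), while *Dusp4* and *Dusp6*, which act on ERK, were lower, with changes of -0.85 and -0.65 (adjusted p = 0.0023 and 0.007). Of 29 genes of TGF-beta and BMP signalling, 5 were higher and 2 lower. The activin and myostatin binders *Fstl3* and *Fst* rose, *Fstl3* by 1.27 (SE 0.11, adjusted p = 3.0e-04) and *Fst* by 0.99 (SE 0.08, adjusted p = 1.7e-04). *Fst* was at 10.03 ± 0.17 (SD, n = 7) with dystrophin siRNA and 9.04 ± 0.26 (SD, n = 7) with GL2 siRNA, without overlap. *Acvr2b*, a receptor of those ligands, fell by 0.78 (SE 0.09, adjusted p = 0.0015), and *Nog*, an inhibitor of BMPs, fell by 1.07 (SE 0.14, adjusted p = 0.0026). Of 14 genes of the IGF axis *Igfbp5*, a binding protein of IGF, alone passed, at -0.41 (SE 0.08, adjusted p = 0.02), and it did not pass without pair 1, 4, 5, 6 or 7 (highest adjusted p 0.066).

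Cell cycle genes were tested in proliferation and exit lists. Of 30 proliferation genes, 0 passed in either direction by limma (before adjustment, at p under 0.05, 0 were lower and 5 higher), against 2 higher under each of the other background corrections, detection filters and the variance trend, and the median change was 0.12. These counts use the brightest probe of each gene. A dimmer probe of *Cdk2*, the brightest gene of this list, did pass, at 0.35 (SE 0.08, adjusted p = 0.04). Its other dimmer probes, at 0.28 and 0.39, did not (adjusted p = 0.073 and 0.24). *Cdkn1a*, the inhibitor p21 by which myoblasts leave the cycle, was at 14.02 ± 0.22 (SD, n = 7) with dystrophin siRNA and 14.92 ± 0.18 (SD, n = 7) with GL2 siRNA, a change of -0.91 (SE 0.09, adjusted p = 6.4e-04). Its dimmer probe had the same change of -0.91 (SE 0.07, adjusted p = 2.0e-04). Imprinted genes were higher in 5 of 17 and lower in 0 (before adjustment, at p under 0.05, 0 were lower and 8 higher). Over all genes 5.10% were higher. The count of higher imprinted genes was 4 without pair 2, 4, 5, 6 or 7. *Zim1*, a zinc finger gene, had a change of 1.23 (SE 0.09, adjusted p = 1.1e-04), *Rtl1*, a gene derived from a retrotransposon, one of 0.95 (SE 0.11, adjusted p = 0.0015), *Dio3*, which inactivates thyroid hormone, one of 0.91 (SE 0.11, adjusted p = 0.0015), and the noncoding *Rian* one of 0.62 (SE 0.10, adjusted p = 0.0083). *Rtl1*, *Dio3* and *Rian* lie in the same imprinted cluster, as does *Gtl2* (also called *Meg3*), whose probe only the lists of the study name. *Gtl2* was at 6.37, 7.13 and 7.78 against 4.68, 5.30 and 5.75 (change 1.86, SE 0.18, adjusted p = 5.7e-04). *Igf2*, a bright imprinted growth factor, was at 0.03 (SE 0.07, adjusted p = 0.89).

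Of 22 microtubule-binding proteins, 4 were higher and 2 lower, with 1 lower without pair 4 or 6. Next to *Dcx*, *Mapt* (tau) had a change of 1.31 (SE 0.13, adjusted p = 5.2e-04), with a dimmer probe at least 2.2-fold higher (adjusted p = 0.0013) and detected on no GL2 siRNA array, and *Map7* one of 0.68 (SE 0.10, adjusted p = 0.0063). The linker protein *Clip4* was at 8.40 ± 0.14 (SD, n = 7) against 10.37 ± 0.16 (SD, n = 7) (change -1.97, SE 0.08, adjusted p = 4.7e-06), and its second probe at -1.75 (SE 0.09, adjusted p = 1.5e-05). Of 12 genes of translation elongation and its muscle paralogues, *Rpl3l* and *Eef1a2*, the elongation factor of muscle and neurons, were lower and 0 were higher (before adjustment, at p under 0.05, 4 were lower and 0 higher). *Eef1a2* fell by 1.27 (SE 0.11, adjusted p = 2.8e-04), while *Eef1g*, another subunit, was at -0.03 (SE 0.07, adjusted p = 0.87). Of 11 detected neuronal genes, 3 were higher and 3 lower. *Slitrk4*, a synaptic adhesion protein, had a change of 1.46 (SE 0.13, adjusted p = 3.1e-04), and *Cyfip2*, a regulator of actin, one of -1.17 (SE 0.15, adjusted p = 0.0023).

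The machinery of RNA interference, which both siRNAs use, gave 1 call in 15, beside 10.7% called over all genes. The call was *Tnrc6b*, a partner of Argonaute, at -0.79 (SE 0.09, adjusted p = 0.0017). A dimmer probe of *Dicer1*, outside this count, was higher, at 0.48 (SE 0.09, adjusted p = 0.021). Another dimmer *Dicer1* probe stood at -0.07 (adjusted p = 0.79). *Ago2*, the Argonaute that cuts the target, was at 0.04 (SE 0.10, adjusted p = 0.9), and in 11 of the 15 genes the 95% interval lay within 0.32 of 0. Of 19 genes of the interferon response, 1 was higher and 2 were lower. *Ifit2*, an interferon-induced RNA-binding protein, had a change of 0.46 (SE 0.08, adjusted p = 0.011). *Rsad2* (-0.49) did not pass without any 1 of pairs 2 to 7, nor *Ifit3* (-0.40) without any 1 of pairs 1 to 6, where their adjusted p reached 0.095 and 0.077. Of 24 genes of the unfolded protein and stress response, 0 passed in either direction by limma (before adjustment, at p under 0.05, 0 were lower and 3 higher).

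Lists of the cell surface and of upkeep held calls in both directions, to be read beside 10.7% called over all genes. Of 24 integrins, laminins and related genes, 2 were higher and 2 lower (1 lower with any 1 pair left out). *Col23a1*, a membrane-spanning collagen, had changes of -1.69 (SE 0.11, adjusted p = 4.9e-05) and, on its dimmer probe, -2.49 (SE 0.09, adjusted p = 3.8e-06), and *Itga5*, the fibronectin receptor subunit, one of 0.61 (SE 0.09, adjusted p = 0.005). *Itgb1*, the integrin partner common to many receptors, was at 0.01 (SE 0.07, adjusted p = 0.97). Of 23 genes of membrane repair, caveolae and fusion, 1 was higher (0 without pair 2, 3, 5, 6 or 7) and 2 were lower (1 without any 1 of pairs 2 to 7), among them *Cavin4*, the cavin of muscle, at -0.65 (SE 0.07, adjusted p = 0.0014). Of 15 genes of cell cycle exit, 1 was higher (0 without pair 1, 2, 4, 5, 6 or 7) and 2 were lower (1 without any 1 of pairs 2 to 7). Of 24 atrophy and glucocorticoid targets, 3 were higher (0 without any 1 of pairs 2 to 7) and 3 lower (1 without pair 2, 5 or 6).

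**Figure D5:**
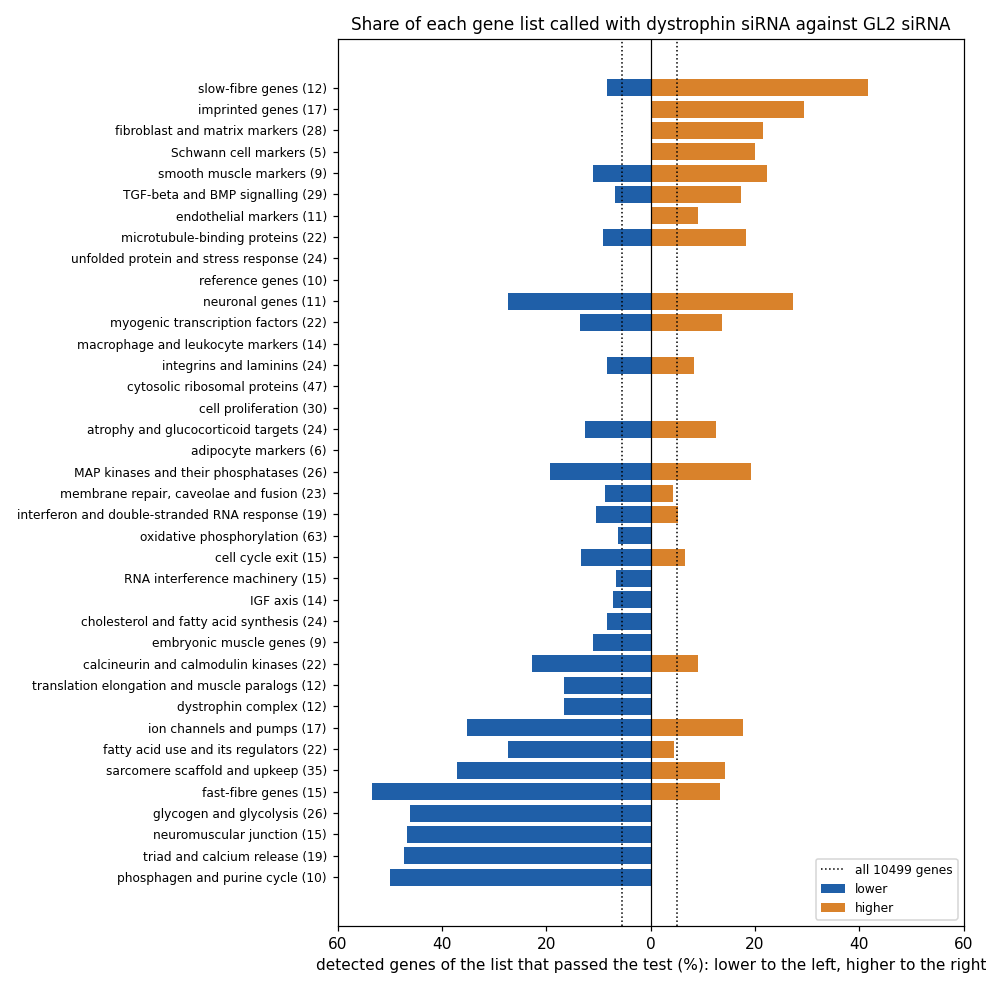
Bars give the percentage of the detected genes of each list that passed at an adjusted p under 0.05, lower to the left and higher to the right, and dotted lines mark 5.56% and 5.10%, the shares over all 10499 genes. In the fast-fibre list 8 of 15 genes were lower, and in the slow-fibre list 5 of 12 were higher.

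Markers of other cells moved with the comparison in part. Of 28 detected fibroblast and matrix genes, 6 were higher and 0 lower by limma (before adjustment, at p under 0.05, 1 were lower and 16 higher), with a median change of 0.23, and 14 to 17 were higher under the other background corrections, the detection filters and the variance trend. The count of higher genes was 3 without pair 2, 5, 6 or 7. The mean level of the 28 genes was 11.64 to 12.30 with dystrophin siRNA against 11.44 to 11.97 with GL2 siRNA, higher by 0.22 on average and in 7 of 7 pairs, and their summed intensity was 202001 to 302721 against 175140 to 237772. *Col1a1*, *Dcn* and *Pdgfra*, picked with their values known, stood at 0.29, 0.08 and 0.06, with adjusted p = 0.099, 0.67 and 0.79. They do not stand for the list, whose called genes, all higher, included *Tnc*, *Col6a2* and *Lox*. *Col6a2* and *Lox* each lost the call without some pairs (highest adjusted p 0.087 and 0.086). *Fstl1*, a secreted glycoprotein, had a change of 0.54 (SE 0.08, adjusted p = 0.005) and *Ccn2*, a matricellular protein, one of 0.72 (SE 0.13, adjusted p = 0.013). The part of these cells in the changes of muscle genes was not tested. Of 14 macrophage and leukocyte markers 0 passed by limma (before adjustment, at p under 0.05, 2 were lower and 0 higher), and *Ptprc*, *Cd68*, *Csf1r*, *Itgam* and *Lyz1* had no detected named probe. Of 6 adipocyte markers 0 passed (before adjustment, at p under 0.05, 3 were lower and 0 higher), and *Fabp4*, *Plin1*, *Cfd*, *Lep* and *Retn* had no such probe. *Vwf*, a clotting protein of endothelium, was the only call among 11 endothelial markers (change 0.68, SE 0.11, adjusted p = 0.0083), and *Pecam1* was at 0.01. Of 9 smooth muscle markers, 2 were higher (1 without any 1 of pairs 1 to 6) and 1 was lower. Outside this count, a dimmer probe of *Acta2*, the brightest gene of that list, was higher, at 0.41 (SE 0.08, adjusted p = 0.019). Another dimmer *Acta2* probe stood at 0.19 (adjusted p = 0.24). Of 5 Schwann cell markers 1 was higher, *Pmp22* at 0.39 (SE 0.09, adjusted p = 0.038), which did not pass without pair 1, 2, 4, 5, 6 or 7.

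In 4388 of the 10499 genes (41.8%) the 95% interval of the change lay within 0.32 of 0, and 0 of these passed the test. Cytosolic ribosomal proteins held 39 of 47 genes inside that interval, and 0 passed by limma (before adjustment, at p under 0.05, 3 were lower and 0 higher). *Rps20* stood at 15.49 ± 0.06 (SD, n = 7) with dystrophin siRNA and 15.49 ± 0.04 (SD, n = 7) with GL2 siRNA. Of 10 common reference genes, 9 lay inside the interval and 0 passed (before adjustment, at p under 0.05, 1 were lower and 1 higher).

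Probes of the same gene did not always move together. Of 3182 genes with several detected probes, 534 had at least 1 call, and in 131 all probes were called in the same direction. In 5 genes (*Kif1b*, *Msi2*, *Pde4dip*, *Sort1*, *Ttc39b*) probes were called in opposite directions. *Sort1*, a sorting receptor of the vesicles that carry the glucose transporter of muscle, stood at -0.46 on its brightest probe (SE 0.09, adjusted p = 0.019), a call lost when pair 3 or 7 was left out (highest adjusted p 0.054). Its other called probes stood at 0.77 and 0.57 (adjusted p = 0.0026 and 0.0092). Which transcripts these probes read was not tested.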

How the data were processed

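RNA of 14 cultures was hybridised to Illumina MouseWG-6 v1.1 BeadChips, with a separate array for each. The authors deposited uncorrected intensity values, the average over the beads of a probe, and a detection p-value for every probe and array. They also deposited processed intensity, on a linear scale, after background correction, log2 transformation and quantile normalization with lumi. Here the deposited intensity of the 14 arrays was background corrected with the RMA model, log2 transformed and normalized by quantiles in R 4.3.3. Limma 3.58.1 (lmFit, eBayes) was fitted to all 46632 probes, without a filter before the fit, and adjustment was by the Benjamini-Hochberg method. Array number was a block, since the labels give both siRNAs the same numbers and every pair correlated above 0.1. The code was tested on simulated data.

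Of the probes, 29976 have 1 gene symbol in the platform annotation, 10 several and 16646 none, and 122 were named from the supplementary lists of the study. The named genes are *Dmd*, the 12 higher and 12 lower genes with the largest measured change among those called with the same sign in 7 pairs, and for each of 38 lists up to 4 called genes and the brightest. Other genes (*Utrn*, *Rapsn*, *Dok7*, *Myod1*, *Ago2*, *Myh1*, *Myh4*, *Myh7*, *Myh8*, *Gtl2*, *Tpm3*, *Csrp3*, *Col1a1*, *Dcn*, *Pdgfra*, *Pecam1*) were picked with their values known. The members and lists were chosen with earlier results of these data known. Alternatives were the fit without the block, other background corrections and scalings, the authors' values, filters on detection, a variance trend and leaving out each pair.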

Additional observations from a re-analysis of the deposited data

Results flagged for a closer look

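In 15 of the 280 groups of 7 arrays tested (140 genes, each siRNA apart), 1 array stood further from the other 6 than Dixon's 95% limit allows, and chance gives about 1 in 20. On GL2 siRNA array 1 this was seen for *Ckm* (13.34, others 12.99 to 13.12), *Lpin1* (9.09, others 8.56 to 8.79) and *Ccn2* (12.37, others 11.29 to 11.68). On GL2 siRNA array 3 this was seen for *Casq1* (12.32, others 12.56 to 12.72), *Ryr1* (12.85, others 13.02 to 13.14), *Cdkn2b* (11.26, others 10.72 to 10.95) and *Map1b* (12.61, others 12.82 to 12.96). On GL2 siRNA array 6 this was seen for *Gapdh* (15.39, others 15.72 to 15.76), *Atp5b* (15.19, others 15.42 to 15.54) and *Tagln* (7.12, others 7.53 to 7.83). On dystrophin siRNA array 1 this was seen for *Pvalb* (10.00, others 8.76 to 9.07), *Atp1b2* (8.24, others 7.19 to 7.59), *Acadm* (10.78, others 10.43 to 10.53) and *Map7* (6.62, others 7.06 to 7.32). On dystrophin siRNA array 3 this was seen for *Scn3b* (7.41, others 7.84 to 8.12). The cause of these values was not tested.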

How the results depend on the processing

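*Dmd* kept its fall and its call under every alternative run, with changes of -1.74 to -2.06. With no replicate block, that is without the pairing, 1338 probes were called (539 higher, 799 lower), of which 1254 were among the 1925 of the paired fit, and 780 genes, 163 of them over 2-fold, and 20 of the 139 named genes other than *Dmd* lost their call. With 1 pair left out, 1163 to 1394 probes, 677 to 806 genes, 163 to 173 genes over 2-fold, 118 to 137 calls among list genes (164 with all pairs) and 3542 to 3885 genes with an interval within 0.32 of 0 were found, and 19 of the 107 called named genes lost their call without some pair. Such fits hold fewer arrays. Under normexp with an offset of 50, no background correction, only probes detected on at least 4 of 18 arrays, only those detected on all 14 siRNA arrays, and a variance trend, in this order, 4013, 4157, 4183, 4263 and 4093 probes, 2509, 2602, 2526, 2667 and 2571 genes and 282, 296, 262, 288 and 300 list genes were called. Of the 1925 probes, 1905, 1905, 1925, 1590 and 1912 were called there. The filters test fewer probes, and for the other settings the cause was not tested. Genes with a narrow interval numbered 8300 and 8427 under the first and the second setting, against 4388. Genes over 2-fold numbered 65, 64 and 95 under the first, the second and the all-array setting, against 166. The lower probes were 47.7, 47.4, 47.3, 46.5 and 48.0% of those calls, and 46.8% of the 1663 under median centring, against 52.7%, so higher calls outnumbered lower ones in these 6 settings. The median change of all genes stayed between 0.01 and 0.03. Normalizing all 18 arrays together and the authors' values gave 1925 and 1927 probes. Taking sets of array numbers (1; 2 and 3; 4 and 5; 6 and 7) as a block, chosen after seeing the data, gave 2511. In all, 82 of the 107 called named genes kept their call under every alternative in which they were tested. Signals near background limit the folds of dim genes.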
